A study of Mus musculus with 6 samples.

Results

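Among the microRNAs (miRNAs) of GC-1spg cells, the authors' table listed 64 names of 100 reads or more that carried no mouse prefix, ended in -x and had a mouse miRNA of the same stem. Most were a known mouse 5′-arm miRNA with a changed end, such as miR-21-x beside miR-21a-5p. They were chosen as names ending in -x, neither mouse nor predicted, with at least 100 reads over the 6 libraries and with a stem that also occurred after the mouse prefix. Of 1224 names in the table, 167 ended in -x, 135 of those had a mouse stem, and 64 of the 135 reached 100 reads. The total over all 6 libraries therefore chose them, and totals are given as a description only, while the difference between the groups played no part in the choice. GC-1spg is an immortalised line from mouse testis that stands in for spermatogonia, from which sperm production starts. The study compared small RNA of cells transfected with an siRNA against METTL3 (si-METTL3, 3 libraries) with that of cells transfected with a control siRNA (si-NC, 3 libraries), both collected after 48 h. The catalytic subunit of the enzyme complex that puts N6-methyladenosine into RNA is METTL3.

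A miRNA is cut from a hairpin transcript, first by Drosha in the nucleus and then by Dicer in the cytoplasm, and one strand of the short duplex is loaded into an Argonaute protein. Imprecise cutting and enzymes that trim the 3′ end or add bases to it (terminal nucleotidyl transferases, which mostly add A or U) give several forms of one miRNA, called isomiRs. Bases 2 to 8, counted from the 5′ end, are the seed that pairs with target mRNAs, so a changed 3′ end leaves the seed as it is and a changed 5′ end shifts it. Tailing and trimming of the 3′ end are also known to accompany the decay of some miRNAs.

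The totals behind the deposited TPM values were 6132668, 4473804 and 4567548 reads in si-METTL3 1 to 3, and 4052812, 3998058 and 4003537 reads in si-NC 1 to 3. All 64 names had reads in all 6 libraries, and all 64 passed the filter on low counts. Of them, 61 lay over its cutoff of 2.35 CPM (reads scaled to the library total) in all 6 libraries, while miR-425-x did so in 1 si-NC library, miR-195-x in 2 si-NC libraries and miR-1839-x in 2 si-METTL3 libraries. The labels print the same siRNA sequence for both groups, and miRNA counts hold no measurement of Mettl3 mRNA, so the groups are those of the sample titles. Nothing in the labels says that libraries of one group are separate cultures. The p-values therefore set a difference between the groups only against the spread of these libraries, and that spread may be technical. Library si-NC 1 stood apart in 17 names known from invertebrates, with 7 reads of them, against 216 in si-NC 2, 440 in si-NC 3, and 845, 420 and 349 in si-METTL3 1 to 3. None of the 64 names was among those 17, and a result that is lost without si-NC 1 is named below. For the lists that follow, the background is that of all names tested in level, of which 17.7% rose and 11.6% fell (edgeR, adjusted p under 0.05). Names known from muscle (6 in the table) summed to 49.4 to 64.6 CPM in si-METTL3 and 93.8 to 97.2 in si-NC, and 1 of 2 tested fell. Names known from neurons (8 in the table) summed to 284 to 331 CPM in si-METTL3 and 235 to 254 in si-NC, and 3 of 4 tested rose. Blood cell names (17 in the table, miR-486-x among them) summed to 274 to 289 CPM in si-METTL3 and 227 to 257 in si-NC, and 2 of 9 tested rose. Endothelial names (4) summed to 64.8 to 77.0 CPM in si-METTL3 and 78.7 to 98.5 in si-NC, and neither of the 2 tested passed, while the liver and serum names (2, not tested) summed to 2.46 to 4.24 in si-METTL3 and 2.00 to 3.95 in si-NC. The part of such names in the results was not tested. Names linked to undifferentiated spermatogonia (31 in the table, with miR-21-x, miR-146-x, miR-106-x and miR-20-x among them) summed to 172523 to 184565 CPM in si-METTL3 and 178585 to 182342 in si-NC, and 4 rose and 5 fell of 26 tested.

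The first set of sequences shows what the listed -x sequence adds to or puts in place of the mouse 3′ end, for the 3 names whose ratio to the mouse form rose after METTL3 siRNA and for 5 whose ratio fell. Capitals mark the 3′ bases that the -x sequence and its mouse form do not share. The mouse sequences in the table were the same as those of RefSeq (GRCm38.p6) for all 560 mouse names that the RefSeq table holds.
miR-21-x: tagcttatcagactgatgttgaCC
miR-21a-5p: tagcttatcagactgatgttga
miR-224-x: taagtcactagtggttccgttTAG
miR-224-5p: taagtcactagtggttccgtt
miR-351-x: tccctgaggagccctttgaAA
miR-351-5p: tccctgaggagccctttgaGCCTG
miR-30-x: tgtaaacatcctcgactggaagCTT
miR-30a-5p: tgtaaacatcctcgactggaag
miR-99-x: cacccgtagaaccgaccttgcgAA
miR-99b-5p: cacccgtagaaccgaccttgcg
miR-183-x: tatggcactggtagaattcactGA
miR-183-5p: tatggcactggtagaattcact
miR-146-x: tgagaactgaattccataggctGA
miR-146b-5p: tgagaactgaattccataggct
miR-191-x: caacggaatcccaaaagcagctAA
miR-191-5p: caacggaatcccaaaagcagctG

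The second set shows names whose 5′ end differs from that of the mouse form, with the seed in capitals. A base added or lost at the 5′ end moves the seed along the molecule, and miR-192-x, miR-26-x, miR-10-x, miR-96-x and miR-452-x each show a seed other than that of their mouse form. miR-100-x is set beside miR-99a-5p, with which it shares a run of 21 bases, against 15 with miR-100-5p.
miR-192-x: tGACCTATgaattgacagccagt
miR-192-5p: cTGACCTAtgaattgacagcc
miR-26-x: cTTCAAGTaatccaggataggct
miR-26a-5p: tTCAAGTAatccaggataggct
miR-10-x: cTACCCTGtagatccgaatttgt
miR-10a-5p: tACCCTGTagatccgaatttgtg
miR-96-x: cTTTGGCActagcacatttttgct
miR-96-5p: tTTGGCACtagcacatttttgct
miR-100-x: cAACCCGTagatccgatcttgt
miR-99a-5p: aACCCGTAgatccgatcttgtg
miR-452-x: aACTGTTTgcagaggaaactgaga
miR-452-5p: tGTTTGCAgaggaaactgagac

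For 62 of the 64 names a mouse name of the same stem shared a run of at least 14 bases, and the one with the longest run is called the mouse form here. The 62 mouse forms were all different. Of them, 61 were 5′-arm miRNAs, 1 (miR-484) is listed with no arm, and 0 were 3′-arm miRNAs. Over all -x names with a mouse form, 125 of 128 paired with a 5′ arm and 0 with a 3′ arm, while all 127 names ending in -y paired with a 3′ arm. What the endings mean is not given in the sources used. The -x sequences were 19 to 27 bases long (median 24), against 19 to 25 (median 22) in the mouse forms, with 51 longer than their mouse form, 4 of equal length and 7 shorter.

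In 50 of the 62 pairs the sequences differed at the 3′ end only. In 37 the -x sequence was the whole mouse form with bases added, and in 13 the last bases of the mouse form were replaced. Another 6 had bases added at the 5′ end, 3 lacked 5′ bases, and 3 (miR-100-x, miR-16-x and miR-374-x) differed in other ways. The seed was that of the mouse form in 52 pairs and another in 10. The -x sequences ended in A in 41 of 64 and in AA in 27, while 8 of the 62 mouse forms ended in A and 0 in AA, and 1.62% of all mouse names in the table ended in AA.

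A mouse hairpin with a matching run was found in the RefSeq table for 58 of the 64. In 9 the whole -x sequence lay in the hairpin, so that its added bases could be read from the gene. This group held miR-224-x, miR-192-x, miR-452-x, miR-27-x, miR-29-x, miR-342-x, miR-350-x, miR-877-x and miR-1839-x. In 30 the sequence left the hairpin only by A at its 3′ end (A in 12, AA in 16 and AAA in 2), in 7 by T, and in 4 by other letters. miR-21-x was among those 4, since the last of its added bases is not the hairpin's. In 6 names (miR-26-x, miR-100-x, miR-10-x, miR-96-x, miR-15-x and miR-98-x) an extra C stood at the 5′ end where the hairpin has another base. The last 2, miR-16-x and miR-374-x, differed from the mouse hairpins inside the sequence. How reads were assigned to a name, and whether the count of a mouse form includes reads of its variants, is likewise not given in those sources. miR-106-x and miR-20-x are listed with one and the same sequence but with totals of 872 and 492 reads, so a count need not stand for the listed sequence alone.

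Together the 64 names held 3.41% ± 0.0240 of a library in si-METTL3 and 3.14% ± 0.0753 in si-NC (mean ± SD, n = 3 each). One name, miR-21-x, made up 79.9% ± 0.430 of their reads in si-METTL3 and 76.0% ± 0.108 in si-NC. Without it, the other names held 0.687% ± 0.0128 of a library in si-METTL3 and 0.753% ± 0.0181 in si-NC. Totals over the 6 libraries ran from 100 to 700702 reads, with a median of 368. The deposited TPM of miR-21-x was 27432, 26889.9 and 27359.5 in si-METTL3 1 to 3 and 23666, 24467 and 23348 in si-NC 1 to 3. The next names were let-7-x, with 1220.2, 1431 and 1221 TPM in si-METTL3 and 1546, 1648 and 1534 TPM in si-NC, and miR-99-x, with 1265, 1184 and 1179.8 TPM in si-METTL3 and 1386, 1378 and 1352 TPM in si-NC. These TPM values are counts scaled to the library total and are not divided by length.

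Set against the mouse form in the same libraries, a -x name had a median of 3.35 reads per 100 reads of its mouse form. The ratio was under 5 per 100 in 37 pairs and over 10 per 100 in 18. It was 18.4 for miR-21-x, 20.8 for let-7-x, 65.4 for miR-224-x and 0.251 for miR-16-x, the lowest. In 3 of the 62 pairs, taken up after their values were seen, the -x name had more reads than the mouse form. miR-452-x had 1342 reads per 100 of miR-452-5p (698 against 52 reads over the 6 libraries), miR-29-x had 673 per 100 of miR-29c-5p (148 against 22 reads), and miR-350-x had 129 per 100 of miR-350-5p (266 against 206 reads). For miR-452-x and miR-29-x the choice of names with at least 100 reads fixed this excess in advance, since their mouse forms had under 100. All 3 lay wholly in the mouse hairpin. The 9 names that lay wholly in the hairpin had a median of 65.4 reads per 100, and the 30 with a 3′ tail of A a median of 3.13. The 7 with a tail of T had a median of 3.00, and the 6 with the extra 5′ C a median of 0.783, with miR-100-x set against miR-100-5p. These medians cannot compare the classes apart from the choice, which held each -x name to at least 100 reads. In the hairpin group the mouse forms of miR-29-x, miR-452-x, miR-877-x, miR-350-x and miR-342-x had only 22, 52, 205, 206 and 282 reads. The others, miR-1839-x, miR-27-x, miR-192-x and miR-224-x, had 2.04, 3.50, 16.6 and 65.4 reads per 100.

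**Figure D1:**
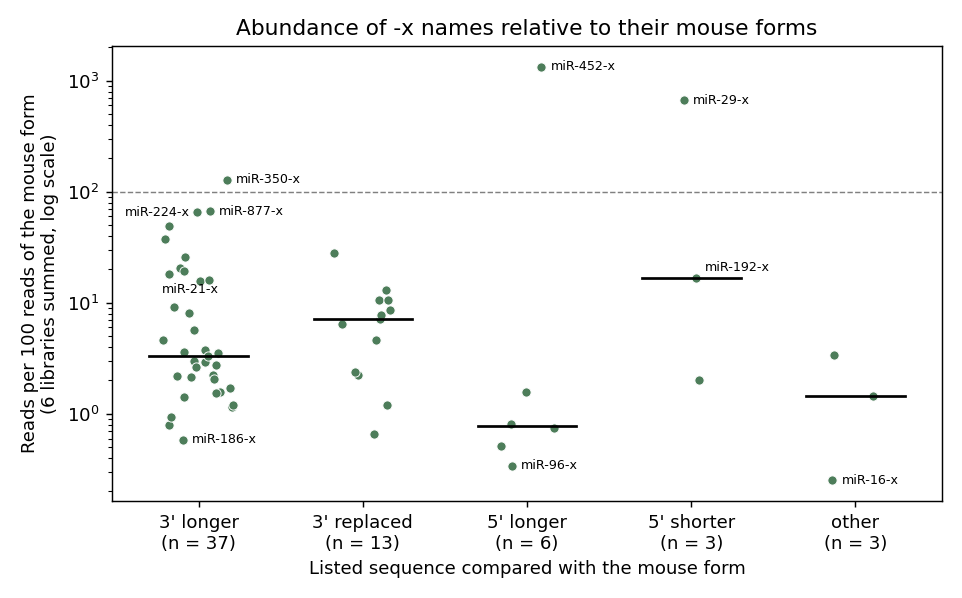
Reads of each of 62 -x names per 100 reads of its mouse form, summed over 6 libraries (log scale), grouped by how the listed sequence differs from the mouse form. Points are names, black lines are group medians, and the dashed line marks 100 reads per 100; miR-452-x, miR-29-x and miR-350-x lie above it.

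In level, some -x names rose and some fell after METTL3 siRNA, by small amounts. miR-21-x, the most abundant, was 1.20-fold higher in si-METTL3, miR-224-x 1.48-fold and miR-351-x 1.53-fold, while miR-30-x and miR-192-x were lower. Levels are counts scaled to library size (CPM) after TMM scaling, which brings the libraries to a common level, so a change shared by all miRNAs would not show. Of the 64 names, 11 rose and 7 fell at an adjusted p under 0.05 (two-sided quasi-likelihood test of edgeR, adjusted by Benjamini-Hochberg over all 622 names tested). Over all names tested, 17.7% rose and 11.6% fell (29.3% in either direction), so the members' counts are close to the background. In 26 of the 64 the 3 si-METTL3 libraries lay wholly on one side of the 3 si-NC libraries, where 41.2% of all tested names did, and all 18 that passed were among the 26. The median log2 fold, si-METTL3 over si-NC, was -0.0076 over the 64 and 0.0054 over all names tested. With library totals in place of TMM, 7 of the 64 rose and 8 fell, and over all names 83 rose and 102 fell, against 110 and 72 with TMM. DESeq2's Wald test called 7 of the 64 higher and 5 lower, and over all names 79 higher and 59 lower. The 46 names that did not pass had log2 folds from -0.46 (miR-3102-x) to 0.70 (miR-195-x).

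miR-21-x is a form of miR-21a-5p, which is known for its abundance in dividing cells and lies in an exon of Vmp1 (chr11:86584120-86584141 on GRCm38.p6, minus strand). Its level was 27593, 27713 and 28296 CPM in si-METTL3 1 to 3 and 23439.9, 23835 and 22569 CPM in si-NC 1 to 3. All 3 si-METTL3 libraries lay above all 3 si-NC libraries (log2 fold 0.26 ± 0.04, adjusted p 1.2e-05, error as SE), and the call held without each library in turn. Its mouse form stood at 141262 ± 8146 CPM in si-METTL3 and 140456 ± 3092 CPM in si-NC (mean ± SD, n = 3 each), with a log2 fold of 0.01 ± 0.04, adjusted p 0.92.

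miR-224-x extends miR-224-5p, a miRNA of an intron of Gabre on the X chromosome (chrX:72261085-72261105, minus strand), by bases that the hairpin encodes. It stood at 316, 332 and 332 CPM in si-METTL3 1 to 3 and 209, 231 and 219 CPM in si-NC 1 to 3. The groups were far apart relative to their spread (log2 fold 0.57 ± 0.06, adjusted p 5.6e-08), and the mouse form did not pass (log2 fold 0.09 ± 0.05, adjusted p 0.23). miR-351-x replaces the end of miR-351-5p, an X-linked rodent miRNA that shares the seed CCCTGAG with the miR-125 family (chrX:53053315-53053338, minus strand, in no annotated gene). Its CPM was 182, 159.9 and 173 in si-METTL3 1 to 3 and 117, 103 and 117 in si-NC 1 to 3, again without overlap (log2 fold 0.62 ± 0.07, adjusted p 4.3e-07), and here the mouse form rose as well (log2 fold 0.33 ± 0.05, adjusted p 3.1e-06). miR-125-x, a form of the lin-4 homologue miR-125b-5p with TT at its end, rose less. Its CPM was 536, 508 and 495 in si-METTL3 and 459, 469 and 408 in si-NC (log2 fold 0.21 ± 0.06, adjusted p 0.0067), a call that was lost with si-NC 3 left out (log2 fold 0.14, adjusted p 0.0767, against 0.000862 to 0.0767 over all alternatives).

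Other names that rose were forms of miR-185-5p, miR-151-5p, miR-484, miR-146b-5p, miR-199a-5p and miR-532-5p. miR-185-x averaged 48.8 ± 4.58 in si-METTL3 and 28.4 ± 2.65 in si-NC (CPM, mean ± SD, n = 3 each; log2 fold 0.78 ± 0.12, adjusted p 1.2e-05). miR-151-x averaged 119.7 ± 4.19 in si-METTL3 and 82.8 ± 2.76 in si-NC (log2 fold 0.53 ± 0.07, adjusted p 3.9e-06), and miR-484-x 197 ± 9.45 in si-METTL3 and 156 ± 13.4 in si-NC (log2 fold 0.34 ± 0.07, adjusted p 0.00054). The mouse forms of these 3 rose too, by log2 folds of 0.52, 0.36 and 0.36, and all 3 -x calls held without each library. miR-146-x, of a family known to dampen Toll-like receptor signals, averaged 255 ± 7.15 in si-METTL3 and 221 ± 16.1 in si-NC (log2 fold 0.21 ± 0.06, adjusted p 0.013). Its call was lost with either si-METTL3 2 or si-NC 3 left out (log2 fold 0.15 to 0.19, adjusted p 0.0639 to 0.0963, against 0.00531 to 0.218 over all alternatives). miR-199-x averaged 24.7 ± 3.63 in si-METTL3 and 18.6 ± 1.02 in si-NC (log2 fold 0.41 ± 0.15, adjusted p 0.046), and its call was lost with any one of si-METTL3 1, si-METTL3 3, si-NC 1, si-NC 2 or si-NC 3 left out (log2 fold 0.30 to 0.44, adjusted p 0.0557 to 0.22, against 0.0205 to 0.22 over all alternatives). miR-532-x averaged 18.9 ± 0.727 in si-METTL3 and 13.8 ± 1.79 in si-NC (log2 fold 0.45 ± 0.17, adjusted p 0.049), and its call was lost with any one of si-METTL3 1, si-METTL3 2, si-METTL3 3, si-NC 2 or si-NC 3 left out (log2 fold 0.36 to 0.48, adjusted p 0.0767 to 0.175, against 0.0263 to 0.217 over all alternatives).

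A last name that rose, miR-425-x, was low and was taken up after its values were seen. It had 25, 26 and 33 reads in si-METTL3 1 to 3 and 16, 9 and 5 in si-NC 1 to 3. The groups did not overlap (log2 fold 1.23 ± 0.37, adjusted p 0.014), but this name passed the filter on low counts through the 3 si-METTL3 libraries, and the call was lost with either si-METTL3 3 or si-NC 3 left out (log2 fold 0.90 to 1.01, adjusted p 0.0897 to 0.102, against 0.000278 to 0.102 over all alternatives). Its mouse form, miR-425-5p, also rose (log2 fold 0.66 ± 0.06, adjusted p 2.6e-08). In the authors' deposited table of 50 differently expressed miRNAs, miR-425-x was the one name of the 64, with an authors' log2 fold change of 1.20 and an FDR of 0.00912. In the authors' deposited table of all names, 15 of the 64 had an FDR under 0.05. The share of all names under that FDR was not counted, so the 15 have no background beside them.

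Of the 7 names that fell, miR-30-x is a form of miR-30a-5p, of a family abundant in many tissues (chr1:23272274-23272295, plus strand, in no annotated gene). It stood at 895, 950.0 and 913 CPM in si-METTL3 1 to 3 and 1109.5, 1205 and 1206 CPM in si-NC 1 to 3. No si-METTL3 library reached the lowest si-NC library (log2 fold -0.35 ± 0.05, adjusted p 2.4e-06), and the mouse form fell by less (log2 fold -0.14 ± 0.04, adjusted p 0.0074). In the miR-30 family as a whole, 2 of 14 tested names rose and 5 fell, where 17.7% of all names tested rose and 11.6% fell. miR-192-x, a form of the p53-responsive miR-192-5p (chr19:6264857-6264877, plus strand, in no annotated gene), had 220.1, 242 and 235 CPM in si-METTL3 and 285, 305 and 294 CPM in si-NC (log2 fold -0.34 ± 0.06, adjusted p 6.6e-05). miR-183-x, from the cluster of miR-183, miR-96 and miR-182 known from sensory cells, had 408, 400.2 and 431 CPM in si-METTL3 and 493, 492 and 455 CPM in si-NC (log2 fold -0.22 ± 0.05, adjusted p 0.0027). These 3 calls held without each library in turn.

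let-7-x extends let-7b-5p, of a family that rises as cells differentiate (chr15:85707325-85707346, plus strand, in an exon of Lncppara), by AA that is not in the hairpin. Its CPM was 1227, 1475 and 1263 in si-METTL3 1 to 3 and 1531, 1605 and 1482 in si-NC 1 to 3. It fell (log2 fold -0.22 ± 0.06, adjusted p 0.0066), and the call was lost with si-METTL3 3 left out (log2 fold -0.19, adjusted p 0.0513, against 1.28e-05 to 0.0513 over all alternatives). Its mouse form rose (log2 fold 0.12 ± 0.04, adjusted p 0.035), the one case among the 18 in which name and mouse form passed in opposite directions. let-7-x had 16.8, 22.6 and 17.4 reads per 100 of let-7b-5p in si-METTL3 and 24.1, 24.6 and 22.8 in si-NC. The groups did not overlap, but si-METTL3 2 lay close to the si-NC libraries, and the ratio did not pass (limma, log2 ratio change -0.35 ± 0.13, adjusted p 0.18). Of 24 let-7 names tested, 2 rose and 5 fell.

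miR-99-x, a form of miR-99b-5p from an intron of Spaca6 (chr17:17830194-17830215, plus strand), had 1273, 1219.8 and 1220.2 CPM in si-METTL3 and 1372, 1343 and 1306 CPM in si-NC. The step was small (log2 fold -0.12 ± 0.04, adjusted p 0.046), and the call was lost with any one of si-METTL3 2, si-METTL3 3, si-NC 1 or si-NC 2 left out (log2 fold -0.12 to -0.10, adjusted p 0.0858 to 0.169, against 0.00238 to 0.605 over all alternatives). miR-106-x had 25.6, 29.7 and 30.3 CPM in si-METTL3 and 37.1, 39.0 and 34.0 CPM in si-NC (log2 fold -0.37 ± 0.12, adjusted p 0.025), and its call was lost with any one of si-METTL3 1, si-NC 1 or si-NC 2 left out (log2 fold -0.36 to -0.29, adjusted p 0.056 to 0.103, against 0.00789 to 0.103 over all alternatives). miR-96-x had 13.1, 12.9 and 16.5 CPM in si-METTL3 and 21.0, 19.0 and 19.3 CPM in si-NC (log2 fold -0.48 ± 0.17, adjusted p 0.035), and its call was lost with any one of si-METTL3 1, si-METTL3 2, si-NC 1, si-NC 2 or si-NC 3 left out (log2 fold -0.52 to -0.42, adjusted p 0.0554 to 0.127, against 0.0153 to 0.127 over all alternatives). Both low names were without overlap between the groups.

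**Figure D2:**
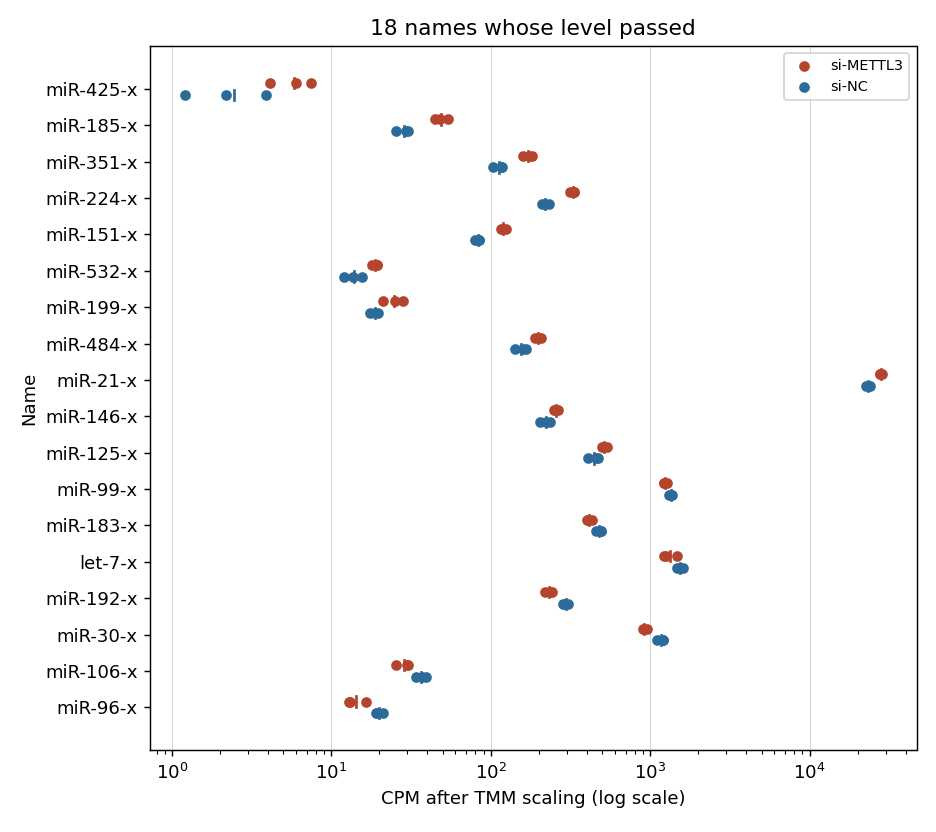
Level of the 18 -x names that passed, in CPM after TMM scaling (log scale), with 1 point per library and a vertical tick at each group mean. The si-METTL3 points (3 libraries) lie right of the si-NC points (3 libraries) in the upper 11 names and left of them in the lower 7, without overlap in any of the 18.

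The mouse forms of the 64 names moved in part with them. Of 60 mouse forms tested in level, 22 rose and 6 fell, with a median log2 fold of 0.09, while 17.7% of all names tested rose and 11.6% fell. Among the 18 -x names that passed, 8 rose with a rising mouse form, 2 fell with a falling one, 1 moved against it, 6 had a mouse form that did not pass, and 1 (miR-106-x) had none. Whether the -x form changed beyond its mouse form was therefore tested as the ratio of the 2 counts within each library, on the log2 scale, which does not depend on library size or scaling.

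Relative to their mouse forms, 3 -x names rose after METTL3 siRNA and 10 fell. The 3 that rose were miR-224-x, miR-351-x and miR-21-x, and the 10 that fell were miR-486-x, miR-199-x, miR-191-x, miR-146-x, miR-26-x, miR-10-x, miR-192-x, miR-30-x, miR-99-x and miR-183-x. The test was limma on the log2 ratio for 160 pairs of a non-mouse name and its mouse form with a mean of at least 10 reads each, at an adjusted p under 0.05, and 60 of the 64 names entered it. Over all 160 pairs, 8.12% rose and 8.75% fell (16.9% in either direction). The groups did not overlap in 23 of the 60, where 33.8% of all pairs did not, and all 13 that passed were among the 23. The median log2 ratio change was -0.09 over the 60 (21 above 0 and 39 below), -0.0029 over all 160 pairs and 0.03 over the 100 pairs that hold no member. The 47 names that did not pass had log2 ratio changes from -0.60 (miR-503-x) to 0.67 (miR-425-x). A quasi-binomial model that estimates the spread of each pair alone called 0 of the 60 in either direction (5 higher and 11 lower at an unadjusted p under 0.05), and limma with a term for 3 sets of libraries, in which si-METTL3 1 alone is set against si-NC 2 and 3, called 2 higher (miR-21-x and miR-224-x) and 2 lower (miR-30-x and miR-192-x). All -x names summed had 8.05 ± 0.0770 reads per 100 reads of their summed mouse forms in si-METTL3 and 7.55 ± 0.256 in si-NC. Without miR-21-x the summed -x names had 2.40 ± 0.0503 reads per 100 reads of their summed mouse forms in si-METTL3 and 2.77 ± 0.121 in si-NC (mean ± SD, n = 3 each).

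miR-224-x had the highest rise in ratio among the 3 that rose, with 72.4, 77.4 and 75.0 reads per 100 reads of miR-224-5p in si-METTL3 1 to 3 and 50.6, 58.5 and 52.0 in si-NC 1 to 3. Every si-METTL3 library lay above every si-NC library, 1.40-fold on average (log2 ratio change 0.48 ± 0.06, adjusted p 3.5e-09). miR-21-x had 20.7, 19.6 and 18.9 reads per 100 of miR-21a-5p in si-METTL3 and 16.4, 16.9 and 16.5 in si-NC (log2 ratio change 0.25 ± 0.03, adjusted p 2.5e-09). Both held without each library in turn, but not with the quasi-binomial model (adjusted p 0.0791 for each). miR-351-x had 11.5, 10.5 and 12.0 per 100 of miR-351-5p in si-METTL3 and 9.52, 8.89 and 9.65 in si-NC (log2 ratio change 0.28 ± 0.08, adjusted p 0.0038), and its call was lost with si-METTL3 3 left out (log2 ratio change 0.24, adjusted p 0.0972, against 0.000902 to 0.182 over all alternatives). In these 3 the level of the -x name had passed as well, in the same direction.

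Among the 10 that fell, 4 had also fallen in level (miR-30-x, miR-99-x, miR-183-x and miR-192-x). miR-30-x had 3.43, 3.54 and 3.47 reads per 100 of miR-30a-5p in si-METTL3 and 3.87, 4.07 and 4.19 in si-NC (log2 ratio change -0.22 ± 0.05, adjusted p 0.00029). miR-99-x had 1.51, 1.47 and 1.45 per 100 of miR-99b-5p in si-METTL3 and 1.67, 1.85 and 1.60 in si-NC (log2 ratio change -0.21 ± 0.05, adjusted p 0.00056). For miR-183-x the values were 5.40, 5.24 and 5.43 per 100 of miR-183-5p in si-METTL3 and 6.27, 6.45 and 5.84 in si-NC (log2 ratio change -0.21 ± 0.06, adjusted p 0.0038). These 3 were lower in every si-METTL3 library than in any si-NC library and held without each library in turn. Not all other alternatives kept them. The quasi-binomial model lost all 3, miR-30-x (adjusted p 0.0791), miR-99-x (0.179) and miR-183-x (0.0957). The term for 3 sets of libraries lost miR-99-x (adjusted p 0.125) and miR-183-x (0.258). For miR-192-x the ratio was 14.5, 16.4 and 15.7 per 100 of miR-192-5p in si-METTL3 and 17.0, 20.1 and 17.1 in si-NC (log2 ratio change -0.22 ± 0.07, adjusted p 0.014), and its call was lost with any one of si-METTL3 1, si-METTL3 3 or si-NC 2 left out (log2 ratio change -0.23 to -0.14, adjusted p 0.0799 to 0.154, against 0.00283 to 0.269 over all alternatives).

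In the other 6 that fell in ratio the mouse form had risen, and the -x name had either not passed in level (miR-26-x, miR-10-x, miR-191-x and miR-486-x) or had risen by less (miR-146-x and miR-199-x). miR-26-x had 1.49, 1.44 and 1.46 reads per 100 of miR-26a-5p, which lies in introns of Ctdsp2 and Ctdspl, in si-METTL3 and 1.78, 1.81 and 1.62 in si-NC (log2 ratio change -0.24 ± 0.06, adjusted p 0.0027), and this held without each library. It was lost with a term for 3 sets of libraries (adjusted p 0.325) and with the quasi-binomial model (adjusted p 0.0957). For miR-146-x the values were 8.30, 8.98 and 8.14 per 100 of miR-146b-5p, from an intron of Mfsd13a, in si-METTL3 and 10.2, 11.2 and 9.28 in si-NC (log2 ratio change -0.27 ± 0.07, adjusted p 0.0022). That call was lost with si-METTL3 3 left out (log2 ratio change -0.24, adjusted p 0.0617, against 0.00031 to 0.179 over all alternatives). For miR-191-x they were 1.19, 1.11 and 0.958 per 100 of miR-191-5p in si-METTL3 and 1.47, 1.44 and 1.28 in si-NC (log2 ratio change -0.37 ± 0.09, adjusted p 0.0023), a call lost with si-METTL3 3 left out (log2 ratio change -0.28, adjusted p 0.0902, against 0.000192 to 0.643 over all alternatives).

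The 3 remaining calls were less firm when single libraries were left out. miR-10-x, a form of miR-10a-5p with an extra 5′ base, had 0.496, 0.465 and 0.478 reads per 100 of its mouse form in si-METTL3 and 0.540, 0.621 and 0.539 in si-NC (log2 ratio change -0.24 ± 0.09, adjusted p 0.048), and its call was lost with any one of si-METTL3 1, si-METTL3 2, si-METTL3 3, si-NC 1 or si-NC 2 left out (log2 ratio change -0.27 to -0.17, adjusted p 0.0681 to 0.221, against 0.0112 to 0.457 over all alternatives). miR-199-x had 0.693, 0.487 and 0.579 per 100 of miR-199a-5p in si-METTL3 and 0.811, 0.756 and 0.848 in si-NC (log2 ratio change -0.47 ± 0.17, adjusted p 0.047), and its call was lost with any one of si-METTL3 2, si-METTL3 3, si-NC 1 or si-NC 3 left out (log2 ratio change -0.47 to -0.35, adjusted p 0.0936 to 0.299, against 0.0196 to 0.846 over all alternatives). Its mouse form had the highest rise among the 60 mouse forms, with a log2 fold of 0.87 ± 0.04, adjusted p 6.5e-14. miR-486-x, a form of a miRNA known from red blood cells and muscle, had 13.1, 13.6 and 13.3 per 100 of miR-486b-5p in si-METTL3 and 29.8, 16.2 and 17.0 in si-NC, where si-NC 1 lay far above the other 2. Its log2 ratio change of -0.60 ± 0.21, adjusted p 0.036 was lost with any one of si-METTL3 1, si-METTL3 2, si-METTL3 3 or si-NC 1 left out (log2 ratio change -0.62 to -0.32, adjusted p 0.0665 to 0.372, against 0.00856 to 0.664 over all alternatives), and without si-NC 1 it was -0.32.

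**Figure D3:**
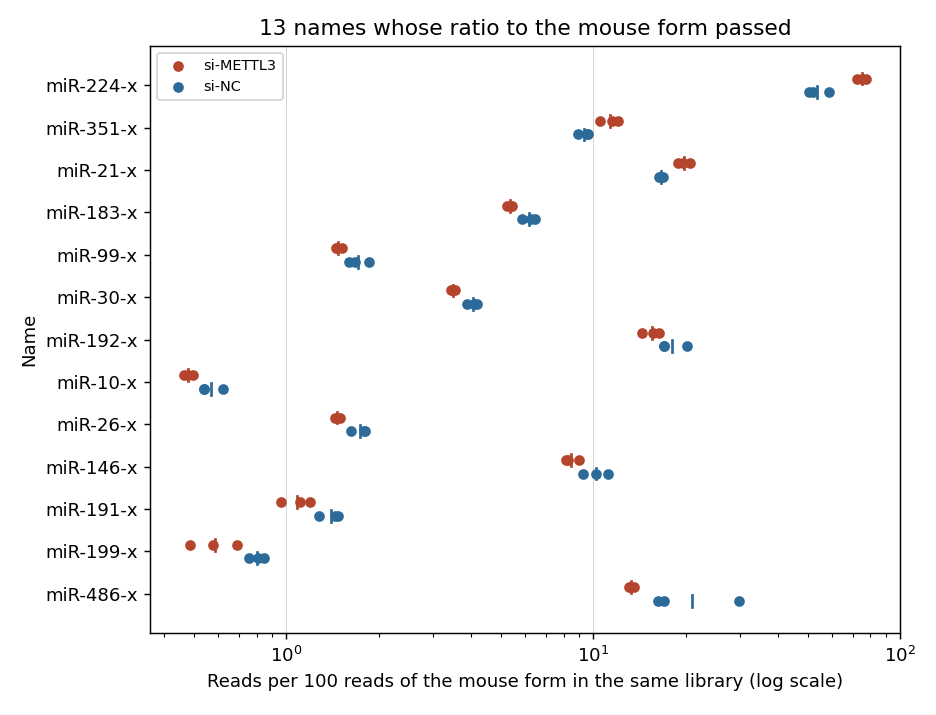
Reads of the 13 -x names whose ratio passed, per 100 reads of the mouse form in the same library (log scale), with 1 point per library and a vertical tick at each group mean. The si-METTL3 points (3 libraries) lie right of the si-NC points (3 libraries) for miR-224-x, miR-351-x and miR-21-x and left of them for the other 10; for miR-486-x, si-NC 1 stands at 29.8 and the other 2 si-NC libraries at 16.2 and 17.0.

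**Figure D4:**
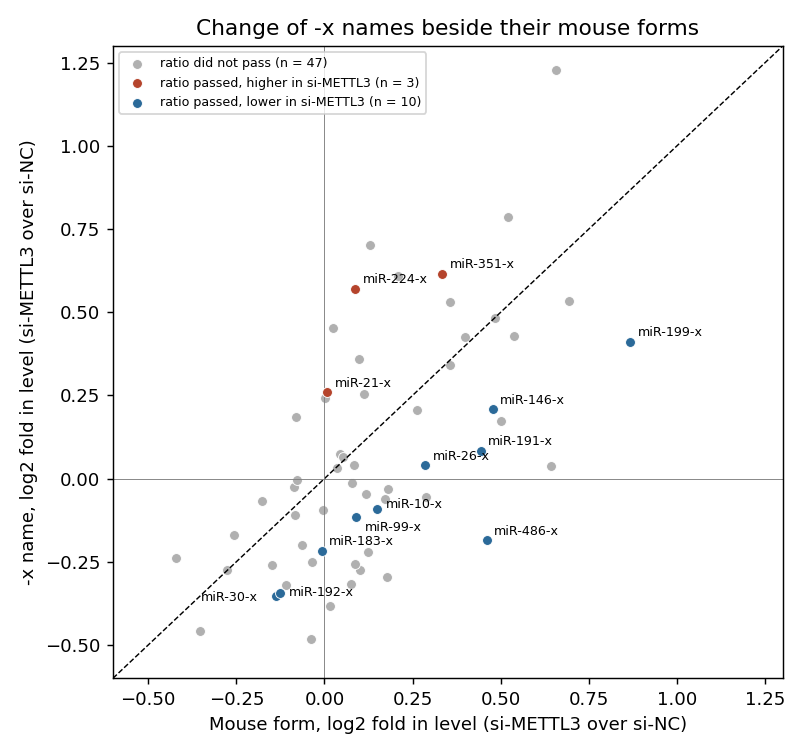
Log2 fold in level (si-METTL3 over si-NC) of each -x name against that of its mouse form, for the 60 pairs tested; each point is a pair and the dashed line marks equal folds. Both axes come from the same 6 libraries. The 3 names whose ratio rose lie above the line and the 10 whose ratio fell lie below it.

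By kind of end, the changes in ratio were spread over the classes. Over all 160 pairs tested, 8.12% rose and 8.75% fell. Of the 37 names that extend the 3′ end, 2 rose and 5 fell in ratio, and of the 13 with a replaced 3′ end 1 rose and 2 fell. Among the 28 tested names with a 3′ tail of A off the hairpin 3 passed, all lower (miR-183-x, miR-146-x and miR-191-x), with a median log2 ratio change of -0.20 (8 above 0 and 20 below). That class leaves out the 6 names with no matching hairpin. Of those 6, miR-351-x, which ends in AA, rose, while miR-99-x, which also ends in AA, and miR-486-x fell. Of the 4 with other letters off the hairpin, 1 rose (miR-21-x) and 1 fell (miR-199-x). Of the 7 with a tail of T 1 passed, lower (miR-30-x), with a median of -0.06. Of the names with the extra 5′ C, the 5 other than miR-100-x had a log2 ratio change below 0 (median -0.24), and 2 passed (miR-26-x and miR-10-x), while that of miR-100-x was -0.0026 against miR-100-5p and 0.27 against miR-99a-5p. In the 7 tested names that lay wholly in the hairpin the median was -0.0032, with 1 that rose (miR-224-x) and 1 that fell (miR-192-x). No difference between these classes was tested.

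Names from one gene cluster or family were compared side by side. In the cluster of miR-183, miR-96 and miR-182 the ratio per 100 reads of the mouse form averaged 0.293 ± 0.0325 in si-METTL3 and 0.399 ± 0.00575 in si-NC for miR-96-x (log2 ratio change -0.45 ± 0.18, adjusted p 0.096) and 0.881 ± 0.0530 in si-METTL3 and 1.02 ± 0.0979 in si-NC for miR-182-x (log2 ratio change -0.20 ± 0.10, adjusted p 0.17). Neither passed, where miR-183-x did, and the difference between them was not tested. miR-191 and miR-425 lie in exons of one gene, 4833445I07Rik (chr9:108568325-108568347 and chr9:108568789-108568811, plus strand). Both mouse forms rose, with log2 folds of 0.44 and 0.66, while the ratio of miR-191-x fell and that of miR-425-x did not pass (log2 ratio change 0.67 ± 0.36, adjusted p 0.23). miR-452, like miR-224, lies in an intron of Gabre (chrX:72262271-72262292, minus strand). miR-452-x had 156, 124 and 132 reads in si-METTL3 1 to 3 and 84, 110 and 92 in si-NC 1 to 3. Its level did not pass (log2 fold 0.27 ± 0.14, adjusted p 0.17), and its mouse form, with 52 reads in all, was too low for a ratio.

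miR-106-x, miR-20-x, miR-17-x and miR-93-x share the seed AAAGTGC of the miR-17 family, which is known to drive proliferation. The sequence listed for both miR-106-x and miR-20-x is miR-20a-5p with AA added, and it is shown beside miR-106b-5p, with seeds in capitals, because both names carry it.
miR-106-x and miR-20-x: tAAAGTGCttatagtgcaggtagaa
miR-20a-5p: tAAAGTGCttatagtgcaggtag
miR-106b-5p: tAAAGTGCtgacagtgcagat
miR-106-x shares 23 bases with miR-20a-5p (chr14:115044183-115044205, plus strand, in an exon of Mir17hg) and 9 with miR-106b-5p, and so has no mouse form of its own stem. miR-20-x had 14.1, 16.8 and 17.2 CPM in si-METTL3 and 18.1, 21.9 and 22.5 CPM in si-NC, without overlap, but did not pass (log2 fold -0.38 ± 0.17, adjusted p 0.096). Its ratio to miR-20a-5p did not pass (log2 ratio change -0.39 ± 0.18, adjusted p 0.15), nor did that of miR-106-x to miR-20a-5p (log2 ratio change -0.38 ± 0.14, adjusted p 0.055). miR-17-x averaged 12.4 ± 0.237 in si-METTL3 and 15.0 ± 2.52 in si-NC (CPM, log2 fold -0.27 ± 0.18, adjusted p 0.29) and miR-93-x 13.9 ± 4.08 in si-METTL3 and 13.4 ± 2.07 in si-NC (log2 fold 0.04 ± 0.21, adjusted p 0.92), and neither passed in level or ratio.

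miR-100-x and miR-215-x likewise lie closer to a mouse miRNA of another number. Against miR-100-5p, miR-100-x had 3.39, 3.41 and 3.27 reads per 100 in si-METTL3 and 3.47, 3.38 and 3.23 in si-NC (log2 ratio change -0.0026 ± 0.07, adjusted p 0.99). Against miR-99a-5p, an intronic miRNA of Mir99ahg (chr16:77598940-77598961, plus strand) to which its sequence is closer, the log2 ratio change was 0.27 ± 0.07 with an adjusted p of 0.0048 (limma, over the pairs of this alternative, which was chosen after seeing the data). The call for miR-100-x thus depends on which mouse form it is set against. miR-215-x shares 20 bases with miR-192-5p and 10 with miR-215-5p. It averaged 4.73 ± 1.12 in si-METTL3 and 5.27 ± 1.09 in si-NC (CPM), its level did not pass (log2 fold -0.19 ± 0.29, adjusted p 0.69), and neither did its ratio to miR-192-5p (log2 ratio change -0.04 ± 0.32, adjusted p 0.98). Over the 64 names 58 different seeds occurred. Beside AAAGTGC, the seed GACCTAT was shared by miR-192-x and miR-215-x, AGCAGCA by miR-16-x and miR-195-x, and CCCTGAG by miR-125-x and miR-351-x.

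Among the names with a changed 5′ end or an inner difference, miR-96-x and miR-192-x passed in level. miR-26-x, the most abundant of those with an extra 5′ C, had 257, 252 and 254 CPM in si-METTL3 and 256, 257 and 229 CPM in si-NC, which overlapped (log2 fold 0.04 ± 0.06, adjusted p 0.68). miR-15-x averaged 9.65 ± 0.361 in si-METTL3 and 10.1 ± 0.751 in si-NC (CPM, log2 fold -0.05 ± 0.19, adjusted p 0.88), and its ratio to miR-15b-5p did not pass (log2 ratio change -0.35 ± 0.23, adjusted p 0.35), although the groups did not overlap. miR-16-x had 61, 47 and 40 reads in si-METTL3 1 to 3 and 38, 44 and 43 in si-NC 1 to 3, with a log2 fold of -0.02 ± 0.19, adjusted p 0.96. At the threshold of 100 reads, the lowest names inside were miR-195-x (110 reads), miR-298-x (102) and miR-18-x (100), and the highest outside were miR-34-x (87), miR-322-x (83) and miR-142-x (82).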

How the data were processed

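Small RNA of 6 GC-1spg libraries was counted per miRNA name. Per the file headers, the authors deposited a whole-number count and a TPM per name and library, their group means, log2 fold changes, p-values and FDR, and 1 sequence per name. Each deposited TPM is the count scaled by 1 library total, within 5e-05, and that total was taken as the library size. The table held 91.4% to 92.1% of these totals, and 2 emptied lines were not analysed here. fastp, Bowtie2, StringTie, RSEM and the build mm10 are listed in the submitters' processing notes without a role, and how names were assigned is not given in the sources used.

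Counts of all names were tested with edgeR 4.0.16 (R 4.3.3; quasi-likelihood, robust, TMM, filterByExpr). Log2 ratios of a non-mouse name to its mouse form, (count + 0.5) over (count + 0.5) computed from the deposited counts, were tested with limma 3.58.1 (trend, robust). The adjusted p is that of Benjamini-Hochberg over all names or pairs tested, errors are SE, and the fits leave 4 residual degrees of freedom. Scripts were tested on simulated data. The members, the lists (muscle, neurons, blood cells, endothelium, liver and serum, let-7 and miR-30 families, undifferentiated spermatogonia, invertebrate names) and the tests were chosen with earlier results of these data known. Names given with values are the 10 of largest total, up to 8 in each direction in level (mean of at least 10 CPM, no overlap), up to 6 in each direction in ratio, and up to 8 with more than a changed 3′ end, while others were chosen after their values were seen. Alternatives were leaving out each library, a replicate block, other scalings, filters, pseudocounts, mouse forms and tools (DESeq2 1.42.0, a quasi-binomial model), and a term for 3 sets of libraries. Loci are from RefSeq and GENCODE M21 on GRCm38.p6.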

Additional observations from a re-analysis of the deposited data

How the results depend on the processing

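None of 433 recomputed values of the 31 single results changed direction, and 337 also kept their side of the threshold, while 96 did not. In every fit that left out 1 library, 9 of the 18 level calls (miR-21-x, miR-30-x, miR-183-x, miR-224-x, miR-192-x, miR-484-x, miR-351-x, miR-151-x and miR-185-x) and 6 of the 13 ratio calls (miR-21-x, miR-99-x, miR-30-x, miR-183-x, miR-224-x and miR-26-x) held. With 1 library left out, 6 to 11 -x names rose and 4 to 6 fell in level, the fewest without si-NC 3 (6 rose) and without si-NC 2 (4 fell), and over all names 153 to 171 passed. In ratio, 2 to 4 rose and 4 to 9 fell, and over all pairs 16 to 25 passed, the fewest (2, 4 and 16) without si-METTL3 3.

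Library totals alone gave 7 -x names higher in level, as did DESeq2, against 11. Over all names 83 were higher with library totals alone and 79 with DESeq2, against 110. In ratio, a term for 3 sets of libraries left 2 lower against 10, and 8 of all pairs against 27, and in level it left 40 of all names lower against 72 (82 against 110 higher). The quasi-binomial model, which shares no estimate of spread between pairs, left 0 higher and 0 lower, and 2 of all pairs. At an unadjusted p under 0.05 it had 5 higher and 11 lower, against 5 and 15 at that p with limma. The cause of the losses was not tested, for this model or for the other alternatives. No other alternative moved a count of -x names, or of all names or pairs that passed, by over 1.5 times.

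Deviations of same-numbered libraries from their group means correlated at -0.337, -0.0683 and -0.268. These values show no shared variation by replicate number, but they cannot tell whether the libraries were handled in pairs. With the number as a replicate block, 9 -x names rose and 7 fell in level (176 of all names passed), and 3 rose and 11 fell in ratio (27 of all pairs). In level, miR-199-x and miR-532-x were lost under it.

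Depth limits the low names: miR-18-x, at the threshold of 100 reads in all, had 15 to 18 reads a library in si-METTL3 and 12 to 20 in si-NC.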
